A study of Mus musculus with 22 samples.

Results

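The growth factor receptor tyrosine kinase genes described here are Kit, its ligand gene Kitl, the 4 ErbB receptors (Egfr, Erbb2, Erbb3 and Erbb4), the FGF receptors Fgfr1, Fgfr2 and Fgfr3, and Ntrk2. They were found by their gene symbols and make up 10 of the 29367 genes in the count table. The list was chosen by a selection made with results of these same libraries known, and which values led to each gene is not recorded. Every difference between regions or days given for them is therefore a description, and adjusted p-values only place them among all genes tested. The study asked how astrocytes of the unmyelinated optic nerve head (ONH) and of the adjoining myelinated optic nerve proper (ONP) respond to raised intraocular pressure. mRNA bound to HA-tagged ribosomes was sequenced from both regions 7 and 30 days after microbeads were injected into 1 eye to block its outflow. There were 4 libraries per region at 7 days and 7 at 30 days, 22 in all, and each held tissue pooled from 2 male and 2 female mice.

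All 4 groups came from the same kind of mouse, a cross between the Rpl22 tag strain (B6J.129(Cg)-Rpl22tm1.1Psam/SjJ) and a GFAP-Cre driver strain on a C57Bl/6 background, labelled WT for genotype and 3 to 4 months old. Cre under the mouse Gfap promoter switches on the HA tag on ribosomal protein Rpl22, so the tag marks every cell that has used this promoter at any time in its life. All libraries came from microbead-injected eyes, and uninjured mice were not analysed here. Values are CPM, a gene's reads per 1000000 reads of the library total, after that total was multiplied by the library's TMM normalization factor. Libraries held 16292489 to 33307092 counts, and a floor of 3 counts corresponded to 0.0901 to 0.184 CPM before this factor. The 10 genes had between 26 and 37072 counts in a library, so none was near this floor, which covers counting error only.

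Receptor tyrosine kinases sit in the cell membrane, pair up when a ligand binds, and pass the signal on through adaptor proteins to the Ras-MAPK, PI3K and PLC-gamma pathways. KIT is the receptor of stem cell factor, the product of Kitl, and is best known from pigment, mast and blood-forming cells. EGFR binds EGF, TGF-alpha and HB-EGF. ERBB2 has no known ligand of its own and works as the partner of the others. ERBB3 and ERBB4 bind neuregulins, and ERBB3 has little kinase activity. FGFR1, FGFR2 and FGFR3 bind fibroblast growth factors. NTRK2, also called TrkB, is the receptor of BDNF, and astrocytes are known mainly for its truncated form, which lacks the kinase part. Counts were summed per gene, so truncated and full-length forms of Ntrk2 cannot be told apart here.

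The tissue labels were checked against marker genes. The astrocyte marker Gfap averaged 12683 CPM (ONH) and 18385 CPM (ONP) at 30 days. At 7 days its averages were 13142 and 12855 CPM. The myelin gene Mbp, an oligodendrocyte marker, was also abundant, averaging 12250 and 24640 CPM on the later day against 12698 and 40767 CPM on the earlier one. Summed over 10 oligodendrocyte markers, all above 0 in every library, the ONP held 81029 to 108804 CPM at 7 days and 25686 to 84825 CPM at 30 days. The ONH held 18767 to 36269 CPM at 7 days and 13402 to 40367 CPM at 30 days. At 30 days, ONP replicate 5 stood apart, with the highest oligodendrocyte and the lowest astrocyte sum (15304 CPM) of its group. ONH library 6 at 7 days also stood apart, with the highest photoreceptor (5262 CPM), endothelial and mural (904 CPM), pigment cell (860 CPM) and fibroblast (1764 CPM) sums of all 22 libraries. Photoreceptor sums were 77.8 to 1813 CPM in the ONH at 30 days and at least 139 CPM there at 7 days, against at most 118 CPM in any ONP library. In bulk libraries, fewer cells of a type and less RNA per cell cannot be told apart.

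**Figure D1:**
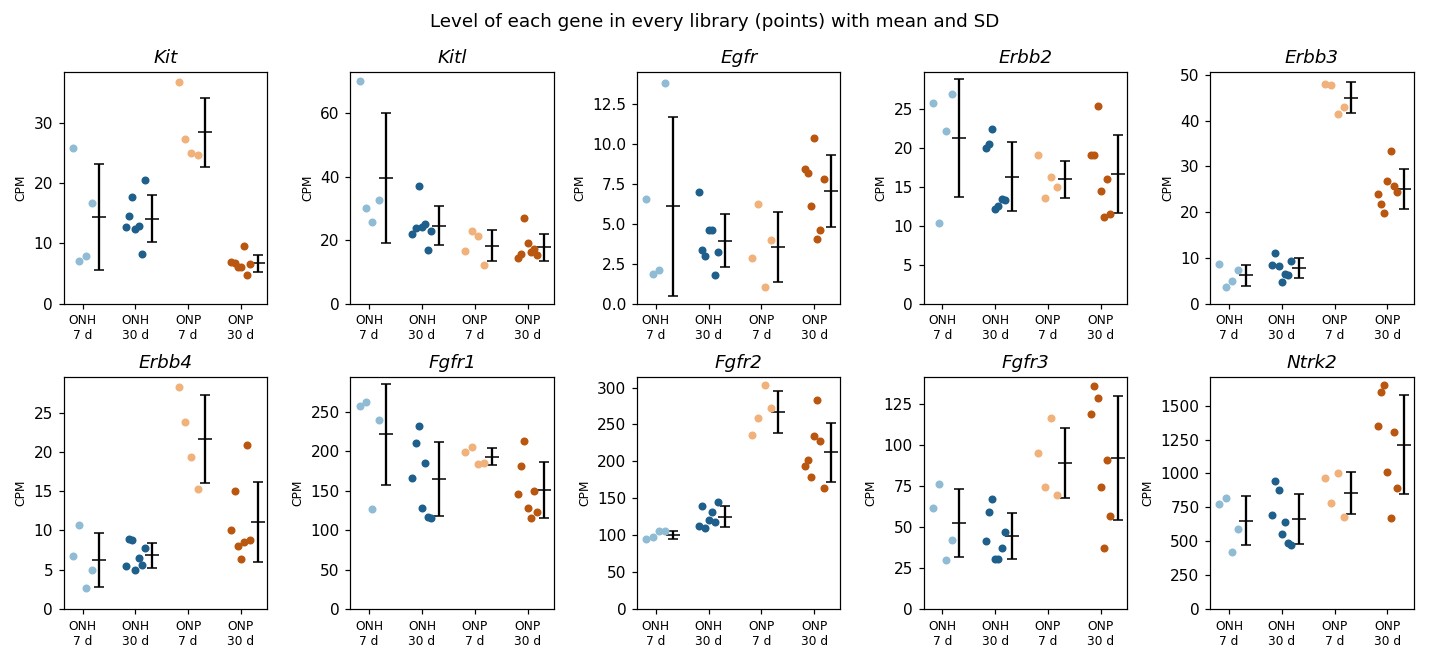
Level of each of the 10 genes in CPM (vertical axes, from 0) in every library (points) of the 4 groups, with the group mean and SD (bar). Kit in the ONP lies between 24.6 and 36.8 CPM at 7 days and between 4.79 and 9.51 CPM at 30 days, and Erbb3 is higher in every ONP than in every ONH library.

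Kit, the gene with the largest change over time, was found at 36.8, 27.2, 25.01 and 24.6 CPM in the 4 ONP libraries at 7 days. At 30 days its level in the ONP ran from 4.79 CPM through a median of 6.58 to 9.51 CPM. The groups did not overlap, and the mean went from 28.4 ± 5.71 CPM (SD, n = 4) to 6.67 ± 1.43 CPM (SD, n = 7). This is a log2 fold change of -2.12 ± 0.18 (SE, edgeR quasi-likelihood test, Benjamini-Hochberg adjusted p = 0.00015), and it ranked 4 of the 15491 genes tested by p. In the ONH, Kit was spread widely at 7 days, with 25.8, 7.06, 7.99 and 16.6 CPM. It ran from 8.31 through a median of 12.9 to 20.5 CPM at 30 days. The ONH means of 14.4 ± 8.74 CPM at 7 days (SD, n = 4) and 14.1 ± 3.94 CPM at 30 days (SD, n = 7) were nearly the same, with a log2 fold change of -0.013 and a 95% interval from -0.70 to 0.67.

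The order of the region means was opposite on the 2 days. At 7 days Kit was lower in the ONH, with a log2 difference of -0.97 ± 0.39 (SE), but this did not pass the threshold (edgeR adjusted p = 0.13). It did pass without ONH library 1, at -1.42 (edgeR adjusted p = 0.0287), and in a single fit of all 4 groups, at -0.99 (edgeR adjusted p = 0.031). At 30 days Kit was higher in the ONH by 1.12 ± 0.20 on the log2 scale (SE, edgeR adjusted p = 0.000407). The groups touched at a single point, since ONP replicate 5 at 9.51 CPM lay above ONH replicate 6 at 8.31 CPM. The difference between the regions in the change over time was itself fitted, and Kit had a value of -2.11 ± 0.41 for the ONP minus the ONH (SE, edgeR adjusted p = 0.0217). That call was lost without 7 day ONP library 1, 2 or 6, with edgeR adjusted p of 0.0667, 0.0619 and 0.0531.

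Kit lies on chromosome 5 at chr5:75574916-75656722 on the forward strand of GRCm38. The sequence just before its earliest annotated start is shown because Kit had the largest change over time of the 10 genes. It covers chr5:75574737-75574915, from RefSeq on GRCm38.p6, and capitals mark a GGGCGG match.
Kit: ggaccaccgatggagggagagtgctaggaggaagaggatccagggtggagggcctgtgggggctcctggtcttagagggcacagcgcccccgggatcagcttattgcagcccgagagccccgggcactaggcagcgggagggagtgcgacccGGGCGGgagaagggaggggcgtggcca

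Cell type markers were set beside Kit because pigment and mast cells are known to use it. Summed over 8 pigment cell markers, the ONH libraries held 82.6 to 860 CPM and the ONP libraries 8.27 to 15.7 CPM. Summed mast cell markers were at most 2.12 CPM in any library, and the mast cell protease gene Cpa3 was at 0 in 21 of 22 libraries. Several marker sums in the ONP had a lower median at 30 than at 7 days, and so did Kit. The oligodendrocyte sums are given above, the 8 endothelial and mural markers went from 342 to 481 CPM to 175 to 277 CPM, and the 7 surface epithelium markers from a median of 15.8 to 0.934 CPM. The ONP medians of microglia and macrophage (1679 to 342 CPM), neuron (236 to 118 CPM), fibroblast (386 to 158 CPM) and photoreceptor sums (30.4 to 4.32 CPM) were also lower. Those of astrocyte (20106 to 28966 CPM) and Schwann cell sums (12.8 to 19.6 CPM) were higher. The days overlapped for the microglia and macrophage, neuron, fibroblast and photoreceptor sums. Microglia and macrophage sums were 1337 to 2263 CPM at 7 days and 212 to 3478 CPM at 30 days. ONP replicates 5 and 7 at 30 days (3010 and 3478 CPM) lay above every 7 day ONP library, with Kit at 9.51 and 6.58 CPM. Over the 22 libraries Kit had r = 0.50 with surface epithelium, 0.47 with neuron, 0.47 with endothelial and mural and 0.44 with microglia and macrophage markers. It had 0.23 with oligodendrocyte and 0.17 with pigment cell markers. Values for fibroblast, photoreceptor, astrocyte, Schwann cell and oligodendrocyte precursor markers were 0.41, 0.32, -0.40, -0.38 and -0.10. The part of these cells in the change of Kit was not tested. The 5 summed markers of oligodendrocyte precursors were 401 to 447 CPM at 7 days and 398 to 535 CPM at 30 days in the ONP.

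Kitl (chr10:100015630-100100416), the gene of the KIT ligand, was the only other member called higher in the ONH at 30 days. It ran from 16.9 through 23.9 to 37.1 CPM in the ONH and from 14.3 through 16.3 to 26.9 CPM in the ONP. The groups overlapped, and the log2 difference was 0.50 ± 0.17 (SE, edgeR adjusted p = 0.0294). The call was not stable to single libraries and held in 8 of the 14 fits that left 1 library out. The 6 fits without it had left out ONH replicate 3 or ONP replicate 1, 2, 5, 6 or 7, with edgeR adjusted p from 0.0501 to 0.0617. At 7 days the ONH had 70.2, 30.0, 25.8 and 32.6 CPM and the ONP 16.6, 23.0, 21.2 and 12.1 CPM. Every 7 day ONH library was above every ONP library, with a log2 difference of 1.14 ± 0.34 (SE, edgeR adjusted p = 0.0524). This passed the threshold without ONH library 5 or 6 (edgeR adjusted p = 0.0451 and 0.0494), with DESeq2 (adjusted p = 0.0154) and voom (adjusted p = 0.0368), and with edgeR without the filter (0.0435), with library size scaling (0.0392) and in a single fit of all 4 groups (0.0069). Only 2 of the 8 fits that left 1 library out called it, and their log2 differences ran from 0.71 to 1.27. The highest edgeR adjusted p among the alternatives was 0.148. ONH library 1, at 70.2 CPM, lay far above the next at 32.6 CPM. Fibroblast marker sums were also higher in the ONH, at 387 to 851 CPM against 81.1 to 601 CPM at 30 days and 654 to 1764 CPM against 156 to 611 CPM at 7 days. Kitl had r = 0.60 with pigment cell, 0.52 with photoreceptor and 0.46 with fibroblast markers. It had -0.56 with oligodendrocyte and -0.54 with oligodendrocyte precursor markers. The part of these cells in the difference of Kitl was not tested. Over time Kitl had a log2 fold change of -0.68 ± 0.27 in the ONH (SE, edgeR adjusted p = 0.294) and of -0.07 ± 0.21 in the ONP (SE, edgeR adjusted p = 0.848).

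Among the ErbB receptors, Erbb3 differed most between the regions. At 7 days it was at 8.79, 3.77, 5.04 and 7.28 CPM in the ONH and at 48.0, 47.8, 41.4 and 43.0 CPM in the ONP. At 30 days it ran from 4.66 through 8.28 to 11.04 CPM in the ONH and from 19.8 through 24.4 to 33.4 CPM in the ONP. The regions did not overlap on either day. The log2 difference of ONH and ONP was -2.84 ± 0.28 at 7 days (SE, edgeR adjusted p = 0.000244) and -1.65 ± 0.18 at 30 days (SE, edgeR adjusted p = 6.8e-06). Erbb3 fell in the ONP from 45.0 ± 3.38 CPM (SD, n = 4) to 25.1 ± 4.34 CPM (SD, n = 7), without overlap and with a log2 fold change of -0.88 ± 0.13 (SE, edgeR adjusted p = 0.00171). In the ONH its log2 fold change over time was 0.33 ± 0.31 (SE, edgeR adjusted p = 0.656). The change over time differed between ONP and ONH by -1.21 ± 0.31 (SE, edgeR adjusted p = 0.0691). This last value passed the threshold with DESeq2 (adjusted p = 0.0189), and with edgeR without ONP replicate 5 (adjusted p = 0.0445) or ONH replicate 4 at 30 days (adjusted p = 0.0444).

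Erbb4, the other neuregulin receptor, showed the same order with more spread. At 7 days it was at 6.71, 10.7, 2.63 and 4.99 CPM in the ONH and at 28.2, 23.8, 19.3 and 15.3 CPM in the ONP, without overlap. The log2 difference was -1.77 ± 0.41 (SE, edgeR adjusted p = 0.0166), and the call was lost without ONP library 1 or 2 (edgeR adjusted p = 0.0542 and 0.0523). At 30 days Erbb4 ran from 4.97 through 6.53 to 8.89 CPM in the ONH and from 6.41 through 8.82 to 20.9 CPM in the ONP. The groups overlapped, and the log2 difference of -0.66 ± 0.26 lay at the threshold (SE, edgeR adjusted p = 0.0499). The call was lost in 7 of the 14 fits that left 1 library out. Without ONP replicate 6, the highest library, the difference shrank to -0.43 (edgeR adjusted p = 0.14), and the other 6 (ONH replicates 1, 4, 5 and 6 and ONP replicates 1 and 2) gave edgeR adjusted p from 0.0628 to 0.103. Erbb4 also fell in the ONP over time, by 0.999 on the log2 scale with an SE of 0.30 (edgeR adjusted p = 0.038). That call held in only 2 of the 11 fits that left 1 library out, those without ONP replicate 2 or 6 at 30 days.

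Egfr, the receptor of EGF and related ligands, was low and uneven. At 30 days it ran from 1.81 through 3.36 to 7.01 CPM in the ONH and from 4.06 through 7.80 to 10.4 CPM in the ONP. The log2 difference was -0.80 ± 0.29 (SE, edgeR adjusted p = 0.0348). It was called in 7 of the 14 fits that left 1 library out and not in those without ONH replicate 2, 3 or 7 or ONP replicate 1, 2, 4 or 7 (edgeR adjusted p from 0.0539 to 0.0779). At 7 days the ONH had 6.55, 1.89, 2.13 and 13.9 CPM and the ONP 2.87, 6.27, 1.08 and 4.03 CPM. The log2 difference of 0.79 ± 0.71 (SE, edgeR adjusted p = 0.504) rested on ONH library 6, the library with the high photoreceptor sum, and was -0.0050 without it. In the ONP, Egfr had a log2 fold change over time of 0.97 ± 0.41 (SE, edgeR adjusted p = 0.124).

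Erbb2, the partner receptor, overlapped between the groups in all 4 comparisons of region or day. Its means were 21.4 ± 7.55 CPM (SD, n = 4) in the ONH and 15.99 ± 2.38 CPM (SD, n = 4) in the ONP at 7 days. At 30 days they were 16.4 ± 4.44 CPM and 16.7 ± 5.01 CPM (SD, n = 7 each). The log2 difference of the regions at 30 days was 0.0075 with a 95% interval from -0.40 to 0.42, so a 2-fold difference lay outside the interval. At 7 days it was 0.44 with an interval from -0.15 to 1.04, which includes a 2-fold difference. No comparison called Erbb2, and the lowest of its edgeR adjusted p was 0.366.

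**Figure D2:**
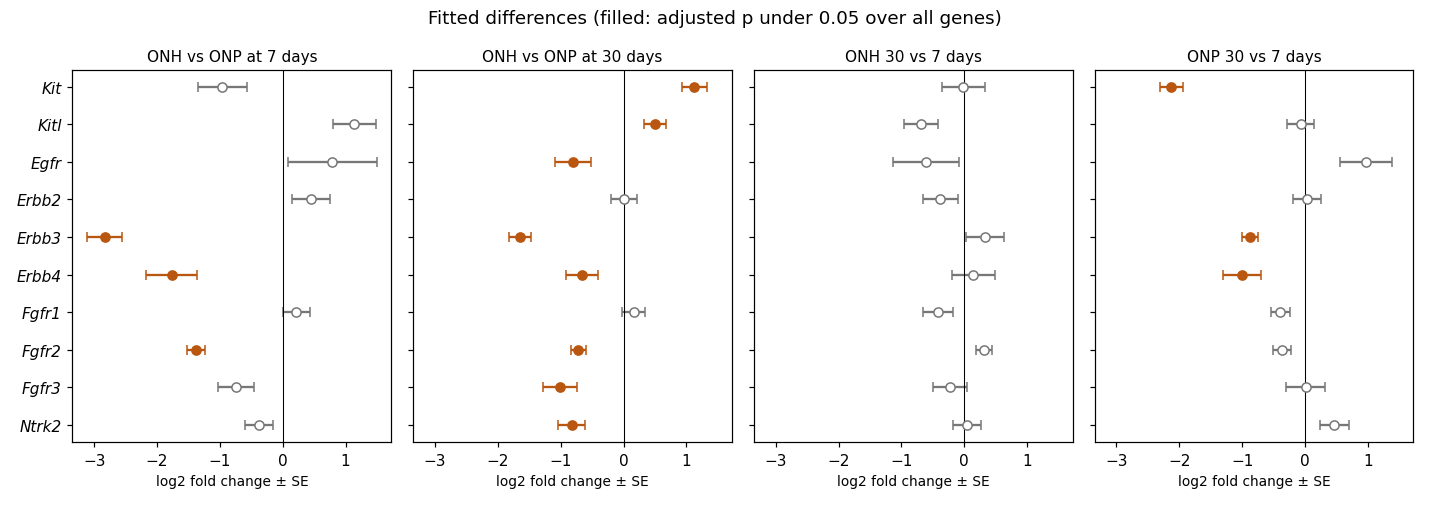
Log2 fold change with its SE (horizontal axis) of the 10 genes (vertical axis) in 4 comparisons, where values right of 0 are higher in the group named first and filled points have an edgeR adjusted p under 0.05 over all genes. Kit lies left of 0 at 7 days (-0.97) and right of 0 at 30 days (1.12) between the regions, and no point is filled for the ONH over time.

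Among the FGF receptors, Fgfr1 and Fgfr2 had different patterns. Fgfr1 had similar means in both regions, with 222 ± 63.9 CPM in the ONH and 193 ± 10.2 CPM in the ONP at 7 days (SD, n = 4 each). At 30 days it was at 165 ± 47.1 CPM and 151 ± 35.1 CPM (SD, n = 7 each). Its log2 difference between the regions was 0.22 at 7 days, with a 95% interval from -0.20 to 0.63, and 0.16 at 30 days, with an interval from -0.20 to 0.52. One 7 day ONH library, number 5, lay well below the other ONH libraries of that day, at 127 CPM against 240 to 263 CPM. In the ONP, Fgfr1 had a log2 fold change over time of -0.39 ± 0.15 (SE, edgeR adjusted p = 0.098), called only without ONP replicate 3 (edgeR adjusted p = 0.0245).

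Fgfr2 was higher in every ONP than in every ONH library on both days. At 7 days it was at 94.6, 97.8, 105 and 106 CPM in the ONH and at 236, 258, 304 and 272 CPM in the ONP. At 30 days it ran from 109 through 120 to 145 CPM in the ONH and from 164 through 202 to 283 CPM in the ONP. The log2 difference was -1.38 ± 0.14 at 7 days (SE, edgeR adjusted p = 0.000282) and -0.72 ± 0.12 at 30 days (SE, edgeR adjusted p = 0.000226). Over time Fgfr2 had a log2 fold change of 0.31 ± 0.13 in the ONH (SE, edgeR adjusted p = 0.308), where the days did not overlap, and of -0.37 ± 0.14 in the ONP (SE, edgeR adjusted p = 0.0897). The fitted difference between these changes was -0.68 ± 0.18 (SE, edgeR adjusted p = 0.0836), and it passed with DESeq2 (adjusted p = 0.0436) and with edgeR without ONP replicate 5 (adjusted p = 0.0299). Without ONP replicate 5, the library highest in Fgfr2, the change in the ONP passed as well, at -0.42 (edgeR adjusted p = 0.0273).

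Fgfr3 and Ntrk2 were both higher in the ONP at 30 days and varied together from library to library. Fgfr3 ran from 30.5 through 41.3 to 67.0 CPM in the ONH and from 36.9 through 90.5 to 136 CPM in the ONP at 30 days, a log2 difference of -1.01 ± 0.27 (SE, edgeR adjusted p = 0.00784). Ntrk2 ran from 475 through 643 to 944 CPM and from 673 through 1303 to 1649 CPM, a log2 difference of -0.83 ± 0.21 (SE, edgeR adjusted p = 0.00563). The groups overlapped for both genes. ONP replicate 5 was the lowest ONP library for both. At 7 days Fgfr3 was at 61.7, 75.9, 29.6 and 41.9 CPM in the ONH and at 95.0, 74.4, 116 and 69.3 CPM in the ONP, a log2 difference of -0.74 ± 0.29 (SE, edgeR adjusted p = 0.118). Ntrk2 on that day was at 776, 820, 422 and 589 CPM in the ONH and at 970, 779, 1001 and 676 CPM in the ONP, a log2 difference of -0.37 ± 0.22 (SE, edgeR adjusted p = 0.297). Neither gene was called over time in a region, although Ntrk2 in the ONP passed without ONP replicate 5, at 0.60 (edgeR adjusted p = 0.0456).

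The stretches before the starts of Fgfr3 and Ntrk2 are shown because this pair varied together most closely within groups (r = 0.89 with group means removed). Fgfr1 and Ntrk2 came close, at 0.87. They cover chr5:33721474-33721673 and chr13:58806319-58806568 on the forward strand, from RefSeq on GRCm38.p6, and end before the earliest annotated start. Capitals mark matches on either strand to GGGCGG or CANNTG, which touch once in Fgfr3.
Fgfr3: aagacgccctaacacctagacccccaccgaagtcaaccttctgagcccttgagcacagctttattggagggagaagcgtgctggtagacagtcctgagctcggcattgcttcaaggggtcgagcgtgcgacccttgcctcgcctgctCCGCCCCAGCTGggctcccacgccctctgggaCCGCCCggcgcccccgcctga
Ntrk2: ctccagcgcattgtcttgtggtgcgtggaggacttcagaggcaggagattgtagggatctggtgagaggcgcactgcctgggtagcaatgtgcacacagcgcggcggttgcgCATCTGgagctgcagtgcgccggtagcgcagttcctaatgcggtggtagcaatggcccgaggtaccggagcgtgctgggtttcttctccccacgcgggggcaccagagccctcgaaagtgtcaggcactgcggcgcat

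Promoter windows were at hand for 8 of the 10 genes. In the 250 bases before the most upstream RefSeq start, GGGCGG was found in Kit, Kitl, Egfr and Fgfr3, and in 8907 of the 27025 genes of the table. CANNTG was found in Erbb2, Fgfr2, Fgfr3 and Ntrk2, and in 66.1% of genes. AACAAT was found in Erbb4, and in 9.62% of genes. TTCNNNGAA, found in 7.14% of genes, had no match in these 8 windows. These letters describe the windows and were not read as sites.

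Over all 10 genes, which all passed the filter on low counts in every comparison, 8 were called between the regions at 30 days, against 41.8% of all genes. Of these, Kit and Kitl were higher in the ONH, against 21.8% of all genes, and 6 were lower, against 20.0%. Erbb3 and Fgfr2 had no overlap, against 16.5% of all genes. At 7 days 3 were called, all lower in the ONH, against 13.2% of genes called and 6.81% called lower. On that day 4 genes had no overlap (Kitl, Erbb3, Erbb4 and Fgfr2), against 21.7% of all genes. The median log2 difference of the 10 genes was -0.69 at 30 days and -0.56 at 7 days, where all genes had medians of -0.0050 and 0.07. Since the list was chosen with these contrasts in view, nothing is read from these shares.

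Over time, 3 of the 10 genes were called in the ONP, all lower at 30 days (Kit, Erbb3 and Erbb4), against 17.0% of genes called and 9.21% called lower. Kit and Erbb3 had no overlap, against 12.1% of genes. In the ONH no gene of the 10 and 0% of all 15668 genes were called by edgeR, although 2179 of all genes and 2 of the 10 had an unadjusted p under 0.05 and DESeq2 called 446 genes and none of the 10. Fgfr2 was the single member without overlap there, against 2.25% of genes. For the difference between regions in the change over time, Kit was called, against 0.543% of genes called and 0.394% called lower. The 10 genes had a median log2 fold change over time of -0.22 (ONP) and -0.12 (ONH), where all genes had -0.0081 and -0.019. These comparisons share libraries, so their values stand side by side and are not independent of each other.

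Per length, the genes can be set against each other. CPM per kilobase of exon put Ntrk2 first in every group, at 34.5 and 33.8 in the ONH and 62.8 and 44.4 in the ONP at 30 and 7 days. Fgfr1 came second in the ONH, at 16.7 and 22.5, and Fgfr2 second in the ONP, at 20.5 and 25.9. Neighbouring ranks often overlapped. In the ONP at 7 days Kit came sixth, at 3.19 CPM per kilobase with Kitl and Erbb2 overlapping it, and at 30 days ninth, at 0.749, between Erbb4 and Egfr, which both overlapped it. Egfr came last in 3 groups and Erbb4 in the ONH at 7 days, where both overlapped.

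**Figure D3:**
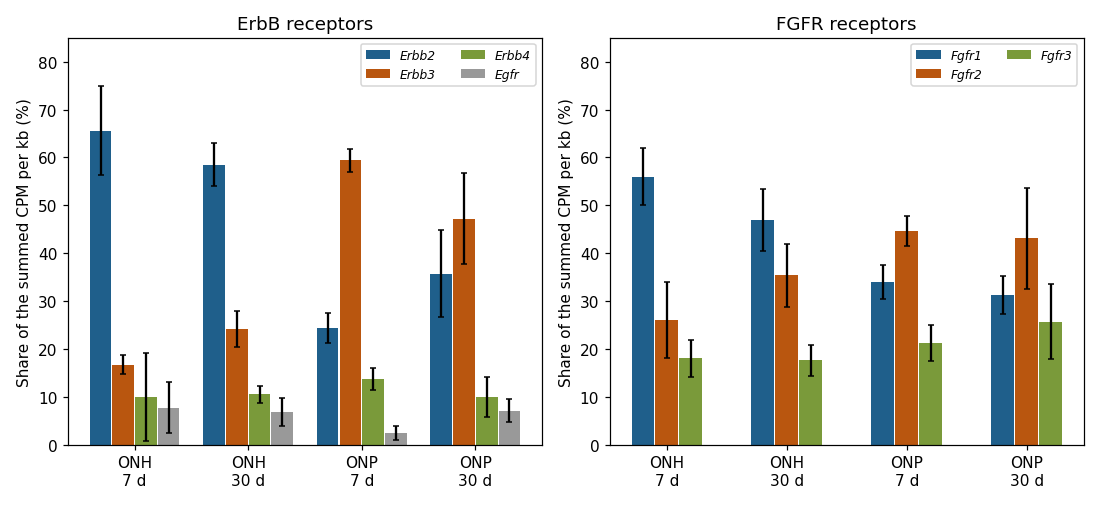
Share of each receptor in the summed CPM per kilobase of its family (vertical axis, percent, mean and SD over libraries) in the 4 groups. Erbb2 holds the largest ErbB share in the ONH (65.6% and 58.5%) and Erbb3 in the ONP (59.4% and 47.2%).

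The make-up of the families differed accordingly. Erbb2 made up 65.6% ± 9.33 of the ErbB sum in the ONH at 7 days (SD, n = 4) and 58.5% ± 4.52 at 30 days (SD, n = 7). In the ONP it made up 24.4% ± 3.04 (SD, n = 4) and 35.7% ± 9.12 (SD, n = 7). Erbb3 did the opposite, with 16.7% ± 2.01 and 24.2% ± 3.78 in the ONH and 59.4% ± 2.39 and 47.2% ± 9.52 in the ONP. The highest Erbb3 share in any ONH library was 30.7% and the lowest in any ONP library 35.1%. Fgfr1 made up 56.0% ± 5.92 and 47.0% ± 6.47 of the FGF receptor sum in the ONH, and 34.0% ± 3.52 and 31.3% ± 3.90 in the ONP. These shares follow from the levels given above and carry no test of their own.

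Erbb3 and Fgfr2 had the most alike patterns among the members, with Pearson's r of 0.94 over the log2 CPM of the 22 libraries. With group means removed it was 0.32, so their likeness lay mostly between the groups. Fgfr3 and Ntrk2 had r = 0.89 both before and after group means were removed. Fgfr1 shared this within groups, with 0.87 for Ntrk2 and 0.69 for Fgfr3 after removal, against 0.32 and 0.37 before. Kit and Erbb3 had 0.73 after removal and 0.19 before. Ntrk2 and Fgfr3 followed the summed astrocyte markers (r = 0.86 and 0.77), and Erbb3 and Fgfr2 followed those of oligodendrocytes (r = 0.83 and 0.88) and of their precursors (r = 0.93 and 0.88). Ntrk2 and Fgfr3 also had r = 0.65 and 0.67 with the precursor markers. Erbb4 had 0.60 with oligodendrocyte and 0.65 with precursor markers. With photoreceptor markers Ntrk2, Fgfr3, Erbb3 and Fgfr2 had r = -0.75, -0.73, -0.71 and -0.66. The libraries share region, day and total count, and these are descriptions. What part the amount of RNA from these cell types had in the differences of Erbb3, Erbb4, Fgfr2, Fgfr3 and Ntrk2 was not tested. ONP replicate 5 at 30 days had the highest Erbb3 and Fgfr2 and the lowest Fgfr3 and Ntrk2 of its group.

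**Figure D4:**
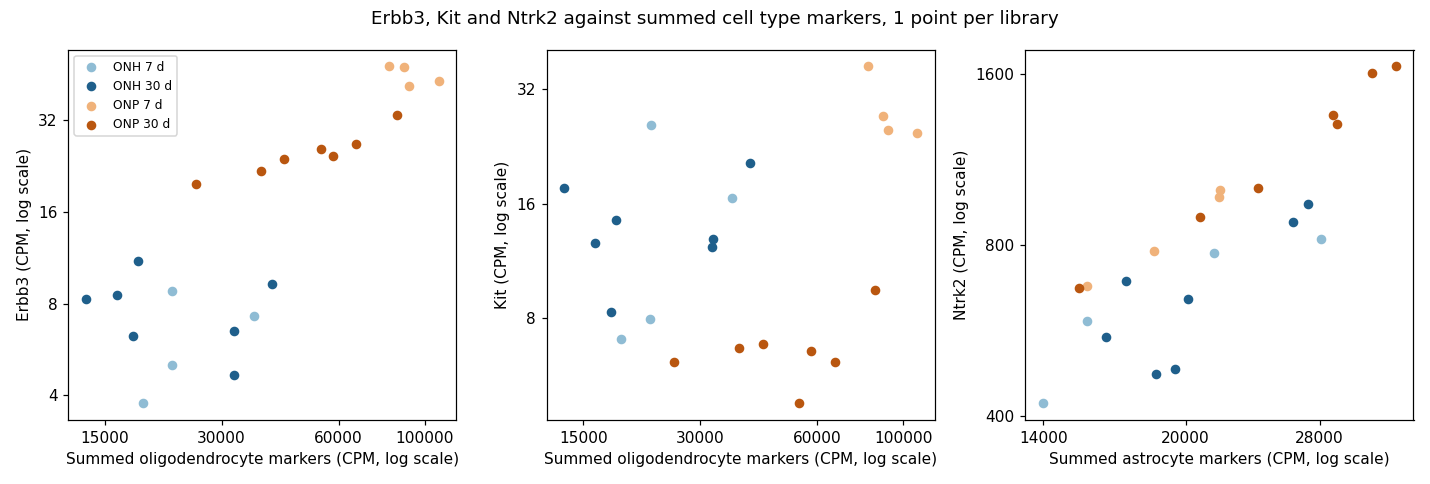
Erbb3 and Kit against the summed CPM of 10 oligodendrocyte markers, and Ntrk2 against that of 10 astrocyte markers, with 1 point per library and log scales on all axes. Over all 22 libraries r on log2 scales was 0.83 for Erbb3 and 0.23 for Kit with the oligodendrocyte sum, and 0.86 for Ntrk2 with the astrocyte sum.

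Outside the list, the genes most like each member over the 22 libraries were taken from 16680 genes. For Kit they were Lhx6 (r = 0.88), Ddx10 (0.84) and Dst (0.82), and for Kitl Fyco1 (0.84), Casp12 (0.82) and Slmap (0.81). For Erbb3 they were Rasa3 (0.97), Gdpd1 (0.96) and Gab1 (0.96), of which Gab1 is an adaptor of receptor tyrosine kinases. For Fgfr2 they were Scd2 (0.97), Tmem229a (0.97) and Tbc1d14 (0.97). For Ntrk2 they were Pygb, the brain glycogen phosphorylase (0.97), Bmpr1b (0.97) and Slc22a4 (0.96), and for Fgfr3 Hspa2 (0.93), Ttyh1 (0.92) and Gpr50 (0.91). Fgfr1 was most like Por (0.91), Plat (0.88) and Atxn10 (0.87), and Erbb4 most like Fam171b (0.85), Mapre3 (0.85) and Cep120 (0.84). The weakest matches were those of Egfr, with Notch3 (0.82), Eya1 (0.76) and Serpinb6c (0.74), and of Erbb2, with Slc35g2 (0.77), Arntl (0.70) and Gulp1 (0.69).

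The ligands of these receptors were read from a list of 33 genes. Of these, 10 could be tested between regions at 30 days and 8 at 7 days. Over all genes, 21.8% were called higher and 20.0% lower in the ONH at 30 days, and 6.34% and 6.81% at 7 days. In the ONP over time, 7.82% of all genes rose and 9.21% fell. Counts for this list and the lists below stand beside these shares. At 30 days 3 ligands were higher in the ONH (Fgf9, Hbegf and Fgf3) and 3 lower (Tgfa, Fgf18 and Fgf1), with a median log2 difference of 0.23 over the list. Fgf9 and Fgf18 were low, with means of 1.69 and 0.514 CPM in the ONH and 0.343 and 1.13 CPM in the ONP. Of the EGFR ligands, Hbegf was at 121 ± 31.6 CPM in the ONH and 46.6 ± 10.3 CPM in the ONP (SD, n = 7 each), a log2 difference of 1.41 ± 0.17 (SE, edgeR adjusted p = 1.9e-05). Tgfa went the other way, at 51.9 ± 9.31 and 127 ± 28.7 CPM (SD, n = 7 each), a log2 difference of -1.25 ± 0.15 (SE, edgeR adjusted p = 2.0e-05). Neither gene overlapped between the regions at 30 days, where Hbegf was at least 89.8 CPM in the ONH and at most 63.8 CPM in the ONP. At 7 days the called ligands were Hbegf (1.67) and Fgf2 (0.91), higher in the ONH, and Fgf1 (-1.34) and Tgfa (-1.08), lower, as log2 differences over a list median of 0.40. In the ONP over time, Fgf1 fell by 0.67 and Fgf2 rose by 0.74 on the log2 scale, the only called ligands of 9 tested.

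The neuregulin gene Nrg1 was low, with means of 1.10 to 2.48 CPM over the 4 groups, and was not called in any comparison. Bdnf, the ligand of NTRK2, had a mean of at most 0.685 CPM and did not pass the filter. In the ONH over time, none of the 11 ligands tested was called by edgeR or had an unadjusted p under 0.05.

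Among 45 other receptor tyrosine kinases, 35 were tested between regions at 30 days. Of these, 11 were higher and 6 lower in the ONH, against 21.8% and 20.0% of all genes. Their median log2 difference was 0.0072. The ephrin receptor Ephb2 was at 18.9 ± 5.50 CPM in the ONH and 3.26 ± 0.90 CPM in the ONP (SD, n = 7 each), a log2 difference of 2.58 ± 0.22 (SE, edgeR adjusted p = 6.2e-07). Flt3 was at 8.43 to 34.4 CPM in the ONH and at 0 to 0.531 CPM in the ONP. The other named ones were Epha2 (2.23), Epha10 (-1.89), Kdr (1.84) and Ror1 (1.35), of which Kdr is also an endothelial marker. At 7 days 4 of 39 were higher in the ONH (Flt3, Kdr, Ephb2 and Epha2) and 2 lower (Ephb1 and Tyro3), with a median of 0.10. In the ONP over time 9 of 37 fell and 1 rose, against 9.21% and 7.82% of all genes, with a median of -0.38. The one that rose was Ror2 (0.86), named after its value was seen. Those that fell most were Flt4 (-3.11), Flt3 (-2.93), Tie1 (-2.37), Tek (-2.26), Epha2 (-1.61) and Insr (-1.33), and Flt4, Tie1 and Tek are known from vessel cells. Flt4 and Flt3 fell to means near the floor of 3 counts, from 1.78 and 1.88 CPM to 0.203 and 0.246 CPM. The summed endothelial and mural markers were 342 to 481 CPM in the ONP at 7 days and 175 to 277 CPM at 30 days, and their part in these changes was not tested.

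Of 27 adaptors and signal carriers, 24 were tested between regions at 30 days. Called higher in the ONH were 3 and lower 4, against 21.8% and 20.0% of all genes, with a median log2 difference of -0.11. Gab1, a docking protein of EGF and FGF receptors, was at 102 ± 15.9 CPM in the ONH and 216 ± 19.8 CPM in the ONP (SD, n = 7 each), a log2 difference of -1.03 ± 0.10 (SE, edgeR adjusted p = 3.1e-06). Other called adaptors were Grb10 (1.46), Pik3r2 (-1.03), Frs3 (-0.95), Ptpn11 (0.91) and Gab2 (-0.81). At 7 days Grb10 was higher and Grb14, Gab1 and Gab2 were lower in the ONH among 24 tested (list median -0.20). In the ONP over time Gab1 (-0.29) and Erbin (-0.42) fell, of 25 tested (median -0.14). The gene of the ERBB2-binding protein Erbin also differed between regions in its change over time, by -1.08 ± 0.23 on the log2 scale (SE, edgeR adjusted p = 0.0341), as did Flt3 (-2.99, edgeR adjusted p = 0.0496). No adaptor of 24 and no other receptor of 40 was called by edgeR in the ONH over time, where 5 and 7 had an unadjusted p under 0.05 and DESeq2 called Grb14, Pdgfrb, Flt1, Tek and Tie1.

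Among 21 pathway feedback genes, such as the Sprouty, Spred and Dusp families, 5 were higher and 5 lower in the ONH at 30 days. The list median was 0.21, and over all genes 21.8% were higher and 20.0% lower. Dusp4 and Fgfrl1 were higher in the ONH at 7 days (list median 0.22). In the ONP over time, Errfi1, an inhibitor of ErbB kinases, went from 209 ± 78.7 CPM (SD, n = 4) to 87.6 ± 19.4 CPM (SD, n = 7), a log2 fold change of -1.29 ± 0.22 (SE, edgeR adjusted p = 0.00349). Spry2, an inhibitor of FGF and EGF signals, rose by 1.09 and Lrig2 fell by 0.79 on the log2 scale there. Errfi1 in the ONH was at 198 ± 67.4 CPM (SD, n = 4) and 80.6 ± 8.43 CPM (SD, n = 7) on these days, and no feedback gene of 21 was called there by edgeR, while 3 had an unadjusted p under 0.05 and DESeq2 called Errfi1 (adjusted p = 4.8e-06).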

How the data were processed

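RNA of HA-tagged ribosomes was sequenced in 22 libraries, each a pool of 4 mice. The authors aligned reads to mm10 with STAR 2.6.1d and quantified them with Salmon 0.14.2, and the authors deposited expected counts per gene as whole numbers, not normalized. The library kit does not mark strand. Log2 values transformed by the authors with DESeq2 1.34.0 were not used here. The count table was tested in R 4.3.3 with edgeR 4.0.16: filterByExpr, TMM normalization, quasi-likelihood test and Benjamini-Hochberg adjustment over all genes, with calls at an adjusted p under 0.05. CPM values use the library total multiplied by its TMM factor, computed over all 22 libraries. Only the groups of a comparison entered its fit, and the difference between regions in the change over time used all 4 groups.

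Alternatives were DESeq2 1.42.0, voom with quality weights in limma 3.58.1, RLE factors, scaling by library size, no filter, all 4 groups in a single fit, the replicate as a block, and each library left out. Leaving out ONH replicate 7 and ONP replicates 5 and 7 at 30 days together, the libraries with the highest microglia and macrophage markers, was chosen after seeing the data. Per the study's methods, each mouse gave tissue of both regions, but replicate numbers were not tied to pools there, and libraries were not treated as paired. The 7 day columns were tied to region and day only. Their numbers (ONH 1, 3, 5 and 6, ONP 1, 2, 5 and 6) name columns of the table and pair nothing.

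The members and gene lists were chosen with earlier results of these data known. All 10 members were named. From each other list, at most 6 called genes with the largest change per comparison were named, and for each member the 3 genes most like it. Positions and exon lengths are from GENCODE M21 (GRCm38), which matched 29322 of 29367 gene identifiers. Scripts were tested on simulated data.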

Additional observations from a re-analysis of the deposited data

Results flagged for a closer look

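Kit differed between the regions in its change from 7 to 30 days, with a fitted log2 value of -2.11 for the ONP minus the ONH (edgeR adjusted p = 0.0217). The spread of Kit in the ONH at 7 days, from 7.06 to 25.8 CPM, enters this value.

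Of 40 sets of libraries (10 genes in 4 groups), 4 held a library far from the others by Dixon's test, and chance alone flags about 1 in 20. Kitl accounted for 3 of these. ONH replicate 3 at 30 days had 37.1 CPM where the next library had 25.1 CPM, and ONP replicate 3 at 30 days had 26.9 CPM where the next had 19.04 CPM. ONH library 1 at 7 days had 70.2 CPM of Kitl where the next had 32.6 CPM. Fgfr1 was lowest in ONH library 5 at 7 days, at 127 CPM where the next had 240.0 CPM, and that library also had the lowest astrocyte marker sum of all 22, at 13981 CPM. Causes were not tested.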

How the results depend on the processing

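Of the members' values under the alternatives other than leaving out single libraries, those with the same direction and side of the threshold were 67 of 80 between regions at 30 days, 54 of 60 at 7 days, 67 of 70 over time in the ONH, 61 of 70 over time in the ONP and 58 of 60 for the difference between these changes. Causes were not tested. At 30 days, same-numbered ONH and ONP libraries correlated in their deviations from the group means with r from 0.0728 to 0.475 (5 of 7 over 0.1), and 3 of 7 ONH libraries matched their own number best, so the numbers were not taken to pair the samples. With the replicate number as a block, 7 members and 6717 genes were called, and Erbb4 (-0.58, edgeR adjusted p = 0.0677) was the only member whose call changed. No paired analysis was possible for the other comparisons because the 7 day columns carry no replicate number of the labels.

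Between regions at 30 days, Erbb2 took a negative sign with scaling by library size (-0.011), no filter (-0.024), DESeq2 (-0.0019), voom (-0.074) and the 3 libraries high in microglia markers left out (-0.15). A single fit of all 4 groups no longer called Kitl, Egfr and Erbb4 at 30 days (edgeR adjusted p = 0.071, 0.142 and 0.0708). At 7 days this fit called 5 members and 3785 genes, where DESeq2 called 3211 genes. Over time in the ONH, edgeR called 2 genes without the filter and 292 in the fit of all 4 groups, and DESeq2 446. Kit there was 0.15 with voom and 0.012 in the fit of all 4 groups, and Ntrk2 -0.0064 with voom. Over time in the ONP, the fit of all 4 groups called 1189 genes, and Kitl was 0.039 with scaling by library size and 0.029 without the 3 libraries. For the difference between the changes, 50 genes were called without the filter, 55 with voom and 409 with DESeq2, which called 3 members. Without the 3 libraries, 7 members and 5437 genes were called at 30 days, and 4 members and 3698 genes over time in the ONP. For the difference, 1 member (Kit, -2.09) and 120 genes were called without them. Ntrk2 rose in the ONP in this setting (0.69, edgeR adjusted p = 0.0125). Scaling by library size moved the median of all genes at 7 days from 0.07 to 0.18, over time in the ONP from -0.0081 to 0.11, and for the difference from 0.011 to 0.16.

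With each library left out in turn, 5 to 8 members and 5671 to 6416 genes were called at 30 days (5 members without ONP replicate 1 or 2), 2 to 4 members and 1102 to 2379 genes at 7 days (1147, 1173 and 1102 genes without ONP library 2, 5 or 6), 0 members and 0 to 167 genes over time in the ONH (167 without library 5 of 7 days), 2 to 4 members and 1439 to 3214 genes over time in the ONP (1439 without library 6 of 7 days), and 0 to 3 members and 22 to 318 genes for the difference between the changes (318 without ONH library 5 of 7 days). Values that changed sign were Erbb2 at 30 days (-0.085 to 0.14) and Egfr at 7 days (-0.0050 to 1.21). Over time in the ONH they were Kit (-0.25 to 0.43), Egfr (-0.91 to 0.17), Erbb4 (-0.10 to 0.52), Fgfr3 (-0.41 to 0.0038) and Ntrk2 (-0.11 to 0.16). Over time in the ONP they were Kitl (-0.20 to 0.064), Erbb2 (-0.10 to 0.16) and Fgfr3 (-0.11 to 0.18), and for the difference Fgfr1 (-0.056 to 0.21). With 4 libraries a group at 7 days, 1 library can decide a call.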
